A study of Drosophila melanogaster with 33 samples.

Results

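Basement membranes are thin sheets of extracellular matrix that underlie epithelia. In insects and mammals alike they are built from laminin trimers (one α, one β and one γ chain), a network of collagen IV, the heparan sulfate proteoglycan perlecan, and nidogen, while the collagen-binding protein SPARC affects collagen IV deposition. Drosophila imaginal discs make much of their laminin themselves, and much of their collagen IV and perlecan is secreted into the hemolymph by the fat body and by hemocytes, the blood cells of the fly. The 8 genes described here encode these components in Drosophila melanogaster and were taken by symbol from the 16727 gene symbols of the deposited count tables. They are vkg (viking, collagen IV α2), trol (perlecan), LanA (laminin α), wb (wing blister, the other laminin α), LanB1 (laminin β), LanB2 (laminin γ), Ndg (nidogen) and BM-40-SPARC (SPARC in current annotation). All 8 symbols were found, and 7 passed the filter on low counts in both fits. Ndg did not and is given as counts.

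The level of each gene was followed in 33 libraries of 8 groups of eye-antennal discs, the larval epithelia that give rise to the eye and antenna, all taken 5 days after egg laying from larvae raised at 25°C. Yorkie (Yki) is a transcriptional co-activator that the Hippo pathway kinase Warts (Wts) holds inactive, and Scalloped (Sd) is its DNA-binding partner. The study compared discs with hyperactive Yki with their controls, and asked how the effect of Yki depended on Sd. The eyFLP groups were y w eyFLP/y w and carried a FRT82B cl- chromosome opposite either FRT82B wts149 (eyFLP wts-, 2 libraries) or plain FRT82B (eyFLP ctrl, 3 libraries). In the optix groups, which were w/y v, the driver optix-Gal4 was combined with UAS-yki3SA (optix yki3SA, 2 libraries), a Yki form with altered inhibitory phosphorylation sites, or with UAS-lucRNAi (optix ctrl, 3 libraries), so expression was limited to the optix-Gal4 domain. The MARCM groups, in which clones that lose Gal80 express Gal4 and GFP, were sequenced in 2 runs. In run 1 all of them were FRT19A/tub-Gal80 FRT19A with ey-FLP, Act 5C<y+<Gal4 and UAS-GFP, with no other change (MARCM ctrl, 5 libraries), with UAS-yki3SA (MARCM yki3SA, 5), with the allele sd47M on the FRT19A chromosome (MARCM sd-, 3) or with both (MARCM yki3SA sd-, 3). Run 2 added 2 MARCM sd- and 2 MARCM yki3SA sd- libraries of the run 1 genotypes, and 2 MARCM ctrl libraries and 1 MARCM yki3SA library made with FRT42D, FRT42D tub-Gal80 and tub-Gal4 UAS-GFP in place of FRT19A and Act 5C<y+<Gal4. Each sample pooled at least 30 whole discs, so the clonal libraries also hold RNA from cells outside the clones, and fewer cells of a type cannot be told apart from less RNA per cell.

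Libraries held 4874192 to 15273835 counts in run 1 and 17071389 to 19128356 in run 2. The labels give polyA RNA as the molecule of the run 1 libraries and total RNA for those of run 2. The muscle and myoblast markers (8 genes) summed to 715.5 to 814.7 CPM in run 1 MARCM ctrl and 407.4 to 485.6 in MARCM yki3SA, and the 5 tracheal markers to 1434 to 2028 and 2503 to 2999 CPM. Most of the muscle change lay in sls (means of 358.3 and 65.07 CPM), while Mef2 was higher (38.6 and 50.12 CPM). Most of the tracheal change lay in serp (390.4 and 1504 CPM), while pio and btl were lower. Of the 8 muscle markers 1 rose and 2 fell, and of the 5 tracheal markers 2 rose and 1 fell. Among all genes 17.3% rose and 17.1% fell. With optix-Gal4 the muscle sums were 777.7 to 922.1 CPM in controls and 513.9 to 587.9 with yki3SA, and the tracheal sums overlapped. The sls means there were 435.6 and 148.3 CPM, and 1 of the 8 muscle markers fell, beside 10.5% of all genes. The part of muscle and tracheal cells in the results below was not tested. All 12 eye-antennal disc marker genes examined were tested in both fits, and together they summed to 3460 to 6794 CPM (read counts normalized to library size) in run 1 libraries and 604.8 to 2041 CPM in run 2 libraries. Of these 12 markers, 11 fell in eyFLP wts-, 6 fell and 1 rose in optix yki3SA, and 12 fell in MARCM yki3SA. Among all tested genes 13.5% fell in eyFLP wts-, 10.5% fell and 9.02% rose in optix yki3SA, and 17.1% fell in MARCM yki3SA. In a principal component analysis the run 2 libraries lay apart from run 1 on component 1. Run 1 replicates 1 and 2 of MARCM yki3SA sd- were the lowest on component 2 (-44.99 and -66.13). Nearest to them there were optix ctrl replicate 2 (-35.64) and MARCM sd- replicate 3 (-33.78). Replicate 2 also held the fewest counts of all libraries (4874192). These 2 MARCM yki3SA sd- libraries are referred to below as those that stood apart. Results of tested members that rest on them are given with and without them, and changes of other genes only with them. Levels below are CPM, scaled within one table for the eyFLP and optix groups and within another for the MARCM groups. Each library counts tags near transcript 3' ends, and changes are log2 fold changes ± standard error from edgeR, called at a Benjamini-Hochberg adjusted p under 0.05 over all genes tested.

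Each of the 3 models of Yki hyperactivation gave the basement membrane genes a different pattern. In eyFLP wts- discs, 3 of the 7 tested members fell (wb, LanB2 and BM-40-SPARC) and 0 rose, beside 24.0% of all 8693 genes called, 10.6% upward and 13.5% downward. In optix yki3SA discs, trol, LanB1 and LanB2 rose and vkg and wb fell, beside 19.5% of all genes called, 9.02% upward and 10.5% downward. In MARCM yki3SA discs, 5 of 7 fell (vkg, trol, wb, LanB2 and BM-40-SPARC) and 0 rose, beside 34.4% of 8927 genes called, 17.3% upward and 17.1% downward. That fit did not pair libraries. A replicate block over both runs ties same-numbered libraries of all MARCM groups in a run. With it 4 fell (LanB2 at an adjusted p of 0.0746), beside 2764 of 8927 genes called. In the 2 groups of run 1 alone 7 fell with the block, beside 4398 of 7891 genes called. Without the block 6 fell there (LanA at 0.0827), beside 3527 of 7891 genes called. The median log2 fold change of the tested members was -0.37, 0.37 and -0.75 in these models, where the medians over all tested genes were -0.01, 0.03 and 0.08. The laminin α gene wb fell in all 3 models.

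Loss of sd alone gave 0 of 7 calls in edgeR, in DESeq2 and in limma-voom, with 0 members at an unadjusted p under 0.05, beside 0.101% of all genes called, 0.0784% upward and 0.0224% downward. In MARCM yki3SA sd- against MARCM sd-, 0 of 7 members passed in edgeR and in limma-voom and 1 in DESeq2, with 2 at an unadjusted p under 0.05, beside 0.134% of all genes, 0.0336% upward and 0.101% downward. Against MARCM yki3SA, the MARCM yki3SA sd- libraries had 5 members higher (vkg, trol, LanA, wb and BM-40-SPARC) and 0 lower, beside 53.0% of all genes called, 24.9% upward and 28.1% downward. Against MARCM ctrl, LanA was the 1 member called, upward, beside 16.7% of all genes, 11.7% upward and 5.00% downward. The interaction, which asks whether the effect of yki3SA differed between discs with sd- clones and discs with control clones, was positive and passed the threshold for the same 5 members, wb only narrowly (adjusted p = 0.0447), beside 27.9% of all genes, 15.0% positive and 13.0% negative. In run 2, groups with and without sd- also differed in FRT chromosome and driver, which this fit cannot separate from sd. In run 1 alone the interaction was called for the same members (adjusted p 3.6e-06 to 0.0442), beside 2016 of 8372 genes.

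Tests of the difference between models called 3 members for eyFLP wts- minus MARCM yki3SA (vkg, trol and BM-40-SPARC), all positive, beside 8.51% of all genes, 3.59% positive and 4.92% negative. For optix yki3SA minus MARCM yki3SA, 6 of 7 members passed (all but wb), all positive, beside 15.8% of all genes, 7.75% positive and 8.02% negative. For eyFLP wts- minus optix yki3SA, trol, LanA and LanB2 passed, all negative, beside 8.19% of all genes, 3.36% positive and 4.83% negative. The LanA call in the last of these (adjusted p = 0.0434) was lost in 8 of 10 fits without 1 library (0.0524 to 0.163) and with DESeq2-type size factors (0.051). Of the calls against MARCM yki3SA, LanA in the optix model was lost in 3 of 15 fits without 1 library (0.0508 to 0.141), vkg in the optix model without optix yki3SA replicate 2 (0.135), and BM-40-SPARC in the eyFLP model without eyFLP wts- replicate 1 (0.23) or eyFLP ctrl replicate 2 (0.0668). These differences share groups, so they are not independent of each other.

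Many genes had run 1 libraries that did not overlap between groups. Of the 7 tested members, 1 lay above and 4 below control without overlap in eyFLP wts-, where the shares of all tested genes were 27.4% and 29.6%. In optix yki3SA 4 lay above and 2 below, beside 15.6% and 18.8%, and in MARCM yki3SA 0 lay above and 6 below, beside 14.3% and 17.8%. In MARCM sd- 0 members were clear of control, beside 2.12% of genes above and 3.73% below. MARCM yki3SA sd- had 3 members above and 0 below MARCM sd- (7.43% and 7.70% of all genes), 4 above and 0 below MARCM yki3SA (19.3% and 24.2%), and 1 above and 0 below MARCM ctrl (13.8% and 20.5%).

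**Figure D1:**
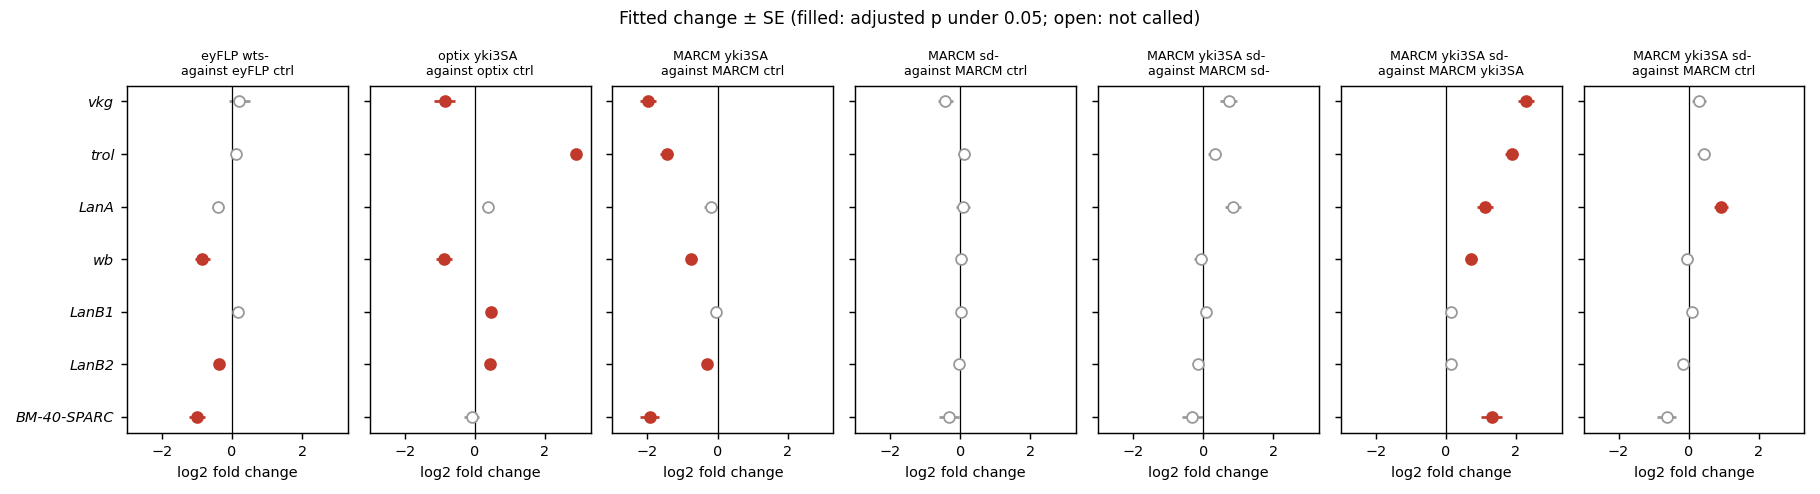
Log2 fold change ± standard error of the 7 tested basement membrane genes in each of the 7 comparisons (filled points, adjusted p under 0.05; open points, not called). The trol point sits at 2.87 in optix yki3SA and at -1.45 in MARCM yki3SA, and wb is filled and left of 0 in the first 3 panels.

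Collagen IV is a trimer of the products of vkg and Cg25C (Col4a1, the α1 chain), a divergent pair of genes with 1417 bases between them. The vkg gene lies at 2L:5012144-5028191 on the minus strand (reference annotation of the dm6 assembly). In run 1 vkg stood at 23.5, 29.5, 24.8, 20.7 and 23.9 CPM in MARCM ctrl and at 7.57, 3.49, 5.06, 6.34 and 4.50 CPM in MARCM yki3SA. Every yki3SA library lay below every control library, and the run 2 yki3SA library (8.52 CPM) also lay below both run 2 controls (26.8 and 23.7 CPM). The change was -1.98 ± 0.22 (adjusted p = 1.46e-07), a level 3.95-fold lower. In MARCM sd- the run 1 level was 18.2 ± 3.76 CPM (SD, n = 3), a log2 fold change of -0.43 ± 0.21 from control that was not called (adjusted p = 1).

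With both yki3SA and sd-, vkg reached 43.7, 27.7 and 35.6 CPM in run 1 and 18.7 and 21.4 CPM in run 2. These libraries lay above every MARCM yki3SA library of their run, with a difference of 2.28 ± 0.23 (adjusted p = 4.42e-08). In run 1 they overlapped the control range, whereas in run 2 both were below both controls, and the difference from MARCM ctrl was not called (0.29 ± 0.21, adjusted p = 0.301). It was called in run 1 alone (0.61 ± 0.22, adjusted p = 0.0402), as was the difference from MARCM sd- (1.01 ± 0.26, adjusted p = 0.035), which over both runs was 0.73 ± 0.23 (adjusted p = 0.18). Without replicates 1 and 2 of run 1 the differences were 0.04 from MARCM ctrl (adjusted p = 0.956), 0.47 from MARCM sd- (adjusted p = 0.866) and 2.07 from MARCM yki3SA (adjusted p = 4.08e-07).

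In the optix model vkg was at 16.7, 12.8 and 10.7 CPM in controls and at 6.44 and 8.02 CPM in optix yki3SA. The groups did not overlap, and vkg fell by 0.86 ± 0.29 (adjusted p = 0.0419). That call was lost when either yki3SA library or control replicate 1 or 2 was left out (adjusted p between 0.0615 and 0.164) and with the 2 optix groups fitted alone (adjusted p = 0.185). The eyFLP groups overlapped, with 8.97, 4.73 and 7.04 CPM in controls and 9.18 and 6.67 CPM in eyFLP wts-, and the log2 fold change of 0.21 ± 0.29 was not called (adjusted p = 0.692). The effect on vkg was more positive in eyFLP wts- than in MARCM yki3SA by 2.35 ± 0.35 (adjusted p = 0.000113), and in optix yki3SA than in MARCM yki3SA by 1.28 ± 0.35 (adjusted p = 0.0159). Ordered by run 1 mean, the 8 groups ran from 5.39 CPM in MARCM yki3SA to 35.7 CPM in MARCM yki3SA sd-. Of the 7 pairs of neighbours in that order, only eyFLP wts- and optix ctrl had libraries that did not overlap.

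The partner chain gene Cg25C was also called in optix yki3SA (-0.92 ± 0.26, adjusted p = 0.0174) and in MARCM yki3SA (-2.04 ± 0.33, adjusted p = 3.32e-05), both downward. Its run 1 mean was 57.8 CPM in MARCM ctrl, 13.1 CPM in MARCM yki3SA and 206.5 CPM in MARCM yki3SA sd-. The rise of 3.35 ± 0.36 from MARCM yki3SA (adjusted p = 1.08e-07) took it above MARCM ctrl by 1.31 ± 0.32 (adjusted p = 0.0204). These values include run 1 replicates 1 and 2 of MARCM yki3SA sd-, and no Cg25C value without them was taken. Among all genes, calls against MARCM ctrl numbered 1491 of 8927 with these 2 libraries and 45 of 9204 without them. Over the run 1 means of the 8 groups, Cg25C was 1 of the 2 genes whose pattern was most like that of vkg (Pearson's r = 0.9638 among 5491 candidate genes), and fat-spondin was the other (0.9642).

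In run 1, summed hemocyte markers moved with the collagen IV genes in the MARCM and optix models, although single markers differed. The 12 markers totalled 235.6 to 544.3 CPM in run 1 MARCM ctrl, 85.46 to 99.75 in MARCM yki3SA, 172.4 to 642.5 in MARCM sd- and 825.1 to 3130 in MARCM yki3SA sd-. The prophenoloxidase genes PPO1 and PPO2 led the sum in MARCM ctrl (76.73 and 199.7 CPM), whereas crq led it in MARCM yki3SA (46.46 CPM, against 6.521 and 17.01 CPM). In run 1 MARCM yki3SA sd- PPO1 and PPO2 led it again (364.4 and 1163 CPM). Markers did not all follow there, with NimC1 and ush at 1.556 and 12.96 CPM, below 3.185 and 15.01 CPM in MARCM ctrl. Hml was higher there (112.3 against 22.64 CPM). In run 2 the sums were 198.9 to 239.9, 134.6, 153.5 to 171.9 and 131.1 to 154.9 CPM in the same order. There vkg was at 8.52 CPM in MARCM yki3SA and at 18.7 and 21.4 CPM in MARCM yki3SA sd-. That MARCM yki3SA library is a single one, made with another FRT chromosome and Gal4 driver than the run 2 MARCM yki3SA sd- libraries. In the optix model the sums were 308.1 to 735.7 CPM without yki3SA and 125.2 to 159.4 CPM with it, and those of the eyFLP model were 99.54 to 258.9 in eyFLP ctrl and 89.64 to 143.9 in eyFLP wts-. Of the tested markers, 6 of 11 fell in MARCM yki3SA and 5 of 10 in optix yki3SA, beside 17.1% and 10.5% of all genes. In eyFLP wts- 0 of 10 were called, beside 24.0% of all genes. In MARCM yki3SA sd- 9 of 11 were higher than in MARCM yki3SA, beside 24.9% of all genes. NimC4 averaged 0 CPM in 6 of the 8 run 1 groups, and the run 1 mean of He was at most 0.5122 CPM. The 8 fat body markers summed to 40.48 to 321.6 CPM in run 1 MARCM ctrl, 8.019 to 28.45 in MARCM yki3SA, 47.45 to 61.80 in MARCM sd- and 30.84 to 179.4 in MARCM yki3SA sd-. In run 2 their sums were 32.47 to 328.8, 99.79, 7.17 to 47.27 and 9.921 to 14.97 CPM. In the optix model they overlapped, at 23.89 to 57.78 CPM without yki3SA and 15.69 to 42.42 CPM with it. In the eyFLP model they did not, at 26.71 to 162.9 CPM in controls and 13.1 to 19.1 CPM in eyFLP wts-, where vkg was not called. Of 7 tested fat body markers, 4 fell in MARCM yki3SA and 1 in eyFLP wts-, beside 17.1% and 13.5% of all genes. The part of these cells in the vkg and Cg25C results was not tested.

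**Figure D2:**
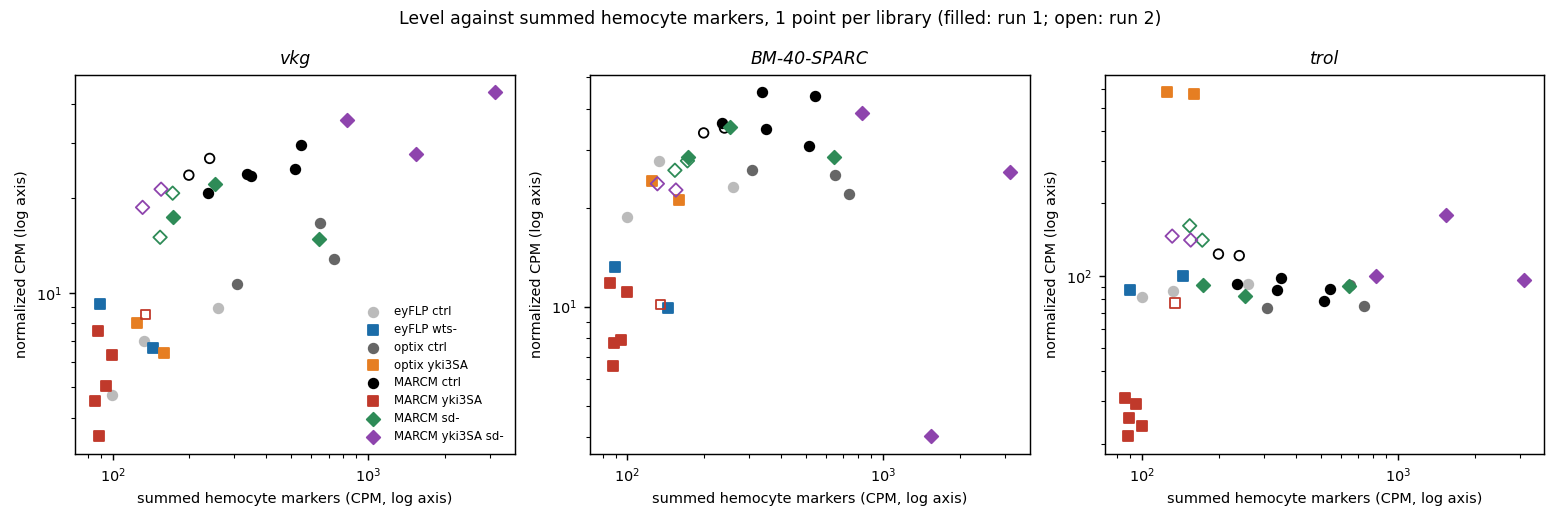
Level of vkg, BM-40-SPARC and trol (normalized CPM, log axis) against the summed CPM of 12 hemocyte markers (log axis), 1 point per library; filled points are run 1 and open points run 2. The 5 run 1 MARCM yki3SA libraries sit at 85.46 to 99.75 CPM of markers, and the run 1 MARCM yki3SA sd- libraries at 825.1 to 3130 CPM. PPO1 and PPO2 led the sum in run 1 MARCM ctrl and MARCM yki3SA sd-, and crq led it in MARCM yki3SA.

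Perlecan is the product of trol, which rose in 1 of the 2 models that express yki3SA and fell in the other. Its rise in optix yki3SA was the largest fold change of a tested member in the 7 comparisons. The gene spans X:2470460-2545427 on the minus strand and has 25 annotated transcripts with 6 different 3' ends, which the counts per gene do not separate. In optix ctrl the 3 libraries held 1057, 521 and 773 trol counts (91.6, 74.7 and 73.6 CPM), and the 2 optix yki3SA libraries held 4791 and 6769 (571.3 and 583.7 CPM). Both yki3SA libraries were far above all 3 controls. The rise was 2.87 ± 0.14 (7.32-fold, adjusted p = 2.64e-12) and lay between 2.82 and 2.98 when any 1 optix library was left out.

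In MARCM yki3SA trol fell. Run 1 controls were at 97.9, 88.2, 78.2, 92.6 and 86.8 CPM and run 1 yki3SA libraries at 21.4, 25.6, 29.4, 23.8 and 30.9 CPM. No run 1 library of one group reached the other, and in run 2 the yki3SA library (77.0 CPM) was below both controls (121.3 and 123.2 CPM) by a smaller ratio. The log2 fold change was -1.45 ± 0.18 over both runs (2.73-fold lower, adjusted p = 1.02e-06) and -1.74 ± 0.17 in run 1 alone (adjusted p = 5.86e-07). The eyFLP libraries held 92.2, 81.8 and 86.5 CPM in controls and 87.5 and 99.7 CPM in eyFLP wts-, which overlapped (0.12 ± 0.14, adjusted p = 0.637). The trol effect in optix yki3SA exceeded that in MARCM yki3SA by 4.62 ± 0.17 (adjusted p = 7.5e-14), and that in eyFLP wts- exceeded the MARCM yki3SA effect by 1.86 ± 0.17 (adjusted p = 1.78e-07). Among 7 glial markers, repo, the defining transcription factor gene of most glia, rose in optix yki3SA (1.69 ± 0.34) and fell in MARCM yki3SA (-1.92 ± 0.44), and wrapper did likewise (1.79 ± 0.49 and -1.44 ± 0.43). Both were low, with run 1 means of at most 13.5 CPM for repo and 5.24 CPM for wrapper. The more abundant nrv2 and moody averaged 209.6 and 38.77 CPM in MARCM yki3SA, above 120.2 and 21.11 CPM in MARCM ctrl. In optix yki3SA loco averaged 29.38 CPM, below 53.07 CPM in optix ctrl. Of the tested glial markers, 2 of 6 rose and 1 fell in optix yki3SA, beside 9.02% and 10.5% of all genes. In MARCM yki3SA 2 of 7 of these markers rose and 3 fell, beside 17.3% and 17.1% of all genes. Their sums overlapped in the optix groups (242.4 to 308.9 CPM in controls, 218.9 to 291.0 with yki3SA) and in run 1 of the MARCM groups (266.5 to 321.5 and 314.5 to 362.3 CPM). Of the tested hemocyte markers 5 fell in optix yki3SA and 6 in MARCM yki3SA, beside 10.5% and 17.1% of all genes. The part of these cells in the trol results was not tested.

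The trol effect of yki3SA also depended on sd (interaction 1.77 ± 0.27, adjusted p = 2.86e-05). MARCM sd- stood at 88.3 ± 5.22 CPM in run 1 (SD, n = 3), close to the 88.8 ± 7.34 CPM of MARCM ctrl (SD, n = 5), and the log2 fold change was 0.10 ± 0.18 (adjusted p = 1). MARCM yki3SA sd- libraries were at 96.4, 178.6 and 99.5 CPM in run 1 and 146.3 and 140.9 CPM in run 2, all above the MARCM yki3SA libraries of their run. They differed from MARCM sd- by 0.32 ± 0.20 (adjusted p = 0.292). The difference from MARCM yki3SA was 1.88 ± 0.19 (adjusted p = 6.44e-08), and 1.59 (adjusted p = 1.69e-07) without run 1 replicates 1 and 2. Against MARCM ctrl the difference of 0.43 ± 0.18 was not called (adjusted p = 0.092), although it was in run 1 alone (0.56 ± 0.19, adjusted p = 0.0301). Without run 1 replicates 1 and 2 it was 0.09 (adjusted p = 0.835), and the difference from MARCM sd- was -0.0006 (adjusted p = 1). Over run 1 means the order of the groups went from 26.2 CPM in MARCM yki3SA to 577.5 CPM in optix yki3SA, and both of these groups lay clear of their neighbour, while the other 5 pairs of neighbours overlapped. CAP and nord had the most similar pattern over the 8 groups (r = 0.9791 and 0.9725).

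Of 17 tested genes within 100 kb of trol, 2 were called in optix yki3SA, beside the 19.5% of all genes, and both fell, tko (-0.64 ± 0.13) and Klp3A (-0.39 ± 0.13), and the 17 log2 fold changes ranged from -1.24 to 0.87. The window and this comparison were chosen after the trol value was known.

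**Figure D3:**
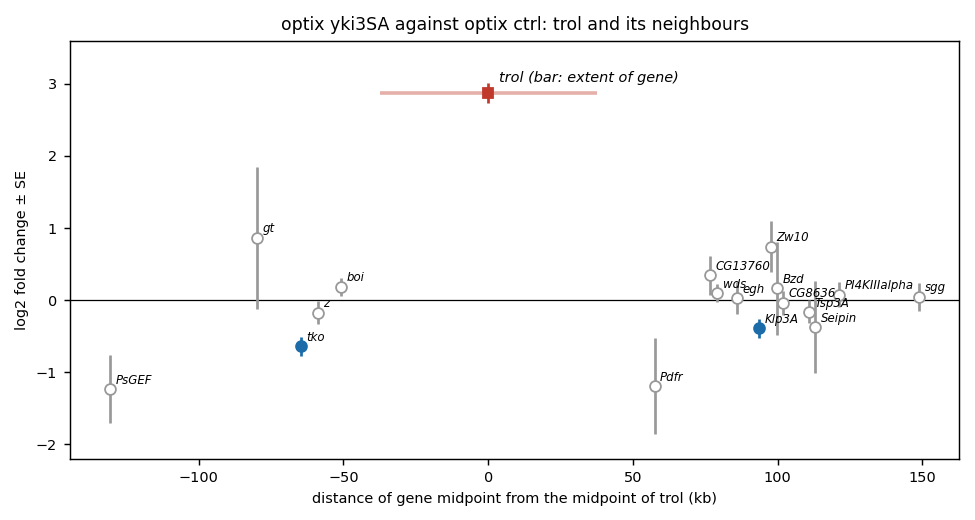
Log2 fold change ± standard error in optix yki3SA against optix ctrl for trol (square; the bar shows the extent of the gene) and 17 neighbouring genes, by distance of the gene midpoint from that of trol in kb; filled points have an adjusted p under 0.05. The square is at 2.87, and the neighbours lie between -1.24 and 0.87.

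Each laminin trimer has 1 of 2 α chains in Drosophila, encoded by LanA (3L:6203831-6218022, minus strand) and wb (2L:14263027-14328262, plus strand). In MARCM ctrl LanA was at 161.8, 155.0, 145.1, 174.5 and 165.7 CPM in run 1, and in MARCM yki3SA at 186.8, 117.1, 115.8, 106.7 and 123.8 CPM. Replicate 1 of MARCM yki3SA was above every control and the other 4 libraries were below them, and the log2 fold change of -0.20 ± 0.20 was not called (adjusted p = 0.494). With run 1 ctrl and yki3SA libraries taken as paired by replicate number, LanA fell by 0.32 ± 0.11 in these 2 groups alone (adjusted p = 0.0282). Without the pairing it was not called there (-0.29 ± 0.13, adjusted p = 0.0827). In MARCM yki3SA sd- LanA stood at 253.7, 554.3 and 261.7 CPM in run 1, above all control, sd- and yki3SA libraries of that run. In run 2 it stood at 322.2 and 330.5 CPM, beside 257.9 and 277.1 CPM in controls, 323.1 and 309.4 CPM in sd- and 266.1 CPM in yki3SA. LanA rose by 1.12 ± 0.21 against MARCM yki3SA (adjusted p = 0.000217) and by 0.92 ± 0.21 against MARCM ctrl (adjusted p = 0.0177).

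The rise of LanA above MARCM ctrl rested on the libraries that stood apart. Without run 1 replicate 2 of MARCM yki3SA sd- it was 0.53 (adjusted p = 0.0506), and without both replicates 1 and 2 it was 0.43 (adjusted p = 0.247). The difference from MARCM yki3SA without both was 0.67 (adjusted p = 0.000831). Against MARCM sd- the difference was 0.84 ± 0.23 (adjusted p = 0.166) over both runs and 1.29 ± 0.26 (adjusted p = 0.0273) in run 1 alone. In the optix model LanA was at 146.3, 173.5 and 166.8 CPM in controls and 199.9 and 213.1 CPM in yki3SA, without overlap but not called (0.37 ± 0.16, adjusted p = 0.115). In eyFLP discs it was at 134.7, 119.5 and 115.5 CPM in controls and 95.8 and 89.9 CPM in eyFLP wts-, again without overlap and not called (-0.40 ± 0.17, adjusted p = 0.0894), although it was with the 2 eyFLP groups fitted alone (-0.41, adjusted p = 0.00473).

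The wb gene was the member that fell in all 3 models. In eyFLP discs it was at 35.5, 32.0 and 25.9 CPM in controls and 19.3 and 15.0 CPM in eyFLP wts- (-0.85 ± 0.21, 1.81-fold lower, adjusted p = 0.00475). In optix discs it was at 21.0, 18.9 and 20.2 CPM in controls and 13.1 and 8.54 CPM in yki3SA (-0.88 ± 0.22, 1.84-fold lower, adjusted p = 0.00742). The groups did not overlap in either model. In MARCM run 1 the controls held 25.4, 33.5, 30.0, 35.9 and 29.9 CPM and the yki3SA libraries 12.81, 17.56, 12.96, 13.89 and 20.27 CPM, again without overlap. In run 2 wb stood at 85.8 and 76.4 CPM in controls and 72.1 CPM in yki3SA, and the change over both runs was -0.75 ± 0.17 (1.68-fold lower, adjusted p = 0.00102). Leaving out eyFLP wts- replicate 2 (adjusted p = 0.118) or optix yki3SA replicate 2 (adjusted p = 0.215), or fitting the optix groups alone (adjusted p = 0.119), ended the call in that model. The effects on wb differed between models by 0.03 to 0.13 in log2, none of them called, with standard errors of 0.26 to 0.30.

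In MARCM sd- wb was at 32.3 ± 3.54 CPM in run 1 (SD, n = 3), with a log2 fold change of 0.03 ± 0.17 from control. MARCM yki3SA sd- libraries were at 30.0, 18.6 and 40.5 CPM in run 1 and 80.1 and 73.8 CPM in run 2. They overlapped the MARCM yki3SA libraries in run 1, where replicate 2 was the low one, and the difference was 0.71 ± 0.18 (adjusted p = 0.00252). The interaction for wb (0.68 ± 0.25, adjusted p = 0.0447) was close to the threshold and was not called without the filter on low counts (adjusted p = 0.0597), with limma-voom (adjusted p = 0.0684), with the replicate block (adjusted p = 0.0659) or in 14 of 23 fits without 1 library (0.0513 to 0.1). It was called in run 1 alone (0.89 ± 0.31, adjusted p = 0.0442). Without run 1 replicates 1 and 2 of MARCM yki3SA sd- it was also called (0.83 ± 0.25, adjusted p = 0.0152). All 7 pairs of neighbouring groups in the order of run 1 wb means overlapped.

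To describe the balance of the α chains, the log2 ratio of wb to LanA was taken in each run 1 library, with 0.5 CPM added to both. Each transcript gives tags near its 3' end, so no length scaling was applied to the share of wb in the summed CPM of both genes. That share was 18.3% to 21.1% in eyFLP ctrl and 14.3% to 16.8% in eyFLP wts-. With optix-Gal4 it was 9.84% to 12.5% in controls and 3.85% to 6.16% in yki3SA discs, and 13.6% to 17.8% in MARCM ctrl and 6.42% to 14.1% in MARCM yki3SA. Shares were lower with hyperactive Yki in each model, with libraries of the MARCM groups overlapping. The mean log2 ratio differed from control by -0.44 in eyFLP wts-, -1.24 in optix yki3SA and -0.66 in MARCM yki3SA. In two-sided exact permutation tests over libraries, p was 0.1 for each of the first 2, the smallest value that 2 against 3 libraries allow, and 0.01587 for the MARCM pair. For MARCM yki3SA sd- against ctrl the difference was -1.17 (exact permutation p = 0.01786, the smallest that 3 against 5 libraries allow). Replicate 2, which stood apart, had a log2 ratio of -4.86, beside -3.06 and -2.68 in replicates 1 and 3, and leaving out 1 library gave differences from -1.60 to -0.51, the smallest without replicate 2. Replicate 3, the run 1 library of the group that did not stand apart, lay below the control mean of -2.36. After adjustment over the 7 comparisons, the MARCM yki3SA and MARCM yki3SA sd- differences from ctrl were at 0.0625 and none of the 7 passed. In run 2 the share was 21.6% and 25.0% in MARCM ctrl and 21.3% in MARCM yki3SA.

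**Figure D4:**
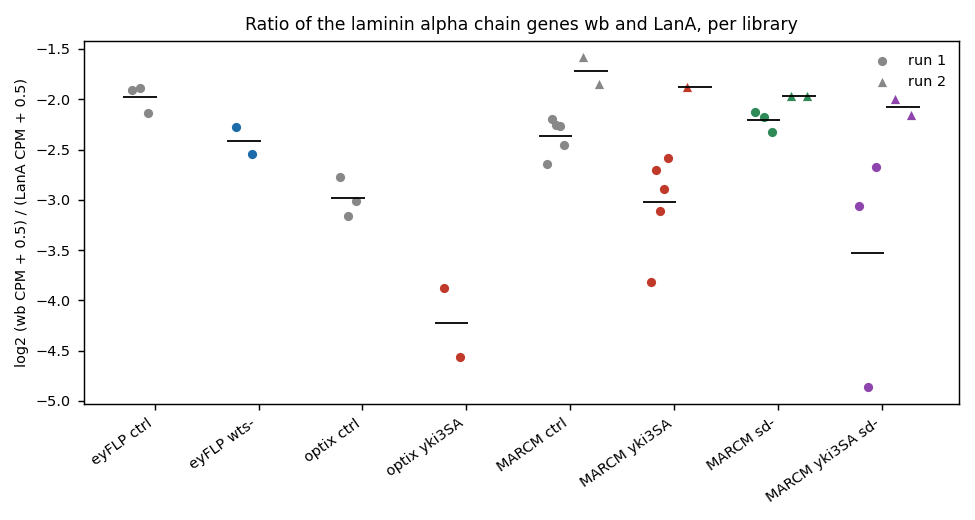
Log2 ratio of wb to LanA (each CPM plus 0.5) in every library by group, with lines at the mean of each group and run (circles, run 1; triangles, run 2). The 2 optix yki3SA libraries lie below all 3 optix controls, and the MARCM yki3SA and control circles overlap.

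The β and γ chains are encoded by single genes in the fly. LanB1 (2L:7811438-7820771, plus strand) was at 277.4, 260.7 and 278.0 CPM in optix ctrl and 355.2 and 386.0 CPM in optix yki3SA, a rise of 0.47 ± 0.09 (1.38-fold, adjusted p = 0.000896) without overlap. With the 2 optix groups fitted alone LanB1 was not called (0.46 ± 0.15, adjusted p = 0.129). In eyFLP discs it was at 244.1, 220.8 and 232.6 CPM in controls and 275.6 and 247.8 CPM in eyFLP wts- (0.18 ± 0.09, adjusted p = 0.198). Run 1 MARCM controls held 277.3 to 326.0 CPM (median 296.6) and MARCM yki3SA libraries 245.9 to 277.1 CPM (median 261.4), just without overlap, whereas in run 2 the yki3SA library (407.0 CPM) was above both controls (326.2 and 346.4 CPM). Over both runs LanB1 was not called (-0.04 ± 0.09, adjusted p = 0.77). In the 2 groups of run 1 alone LanB1 fell with the replicate block (-0.18 ± 0.05, adjusted p = 0.00734) and without it (-0.18 ± 0.06, adjusted p = 0.0289). In edgeR, the differences of MARCM yki3SA sd- from MARCM ctrl and MARCM sd- were 0.10 ± 0.09 and 0.07 ± 0.10 and not called (adjusted p = 0.439 and 0.641). From MARCM yki3SA the difference was 0.14 ± 0.10 (adjusted p = 0.221). That last difference was called in run 1 alone (0.35 ± 0.10, adjusted p = 0.0113), without the run 2 yki3SA library (0.24 ± 0.09, adjusted p = 0.0271), in DESeq2 (0.22, adjusted p = 0.019), and with other scalings or the filter at 10 CPM (0.23, adjusted p 0.026 to 0.0387).

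LanB2 (3L:9614914-9623980, plus strand) moved in opposite directions in 2 of the models. It was at 79.6, 73.4 and 80.3 CPM in optix ctrl and at 104.0 and 103.9 CPM in optix yki3SA (0.44 ± 0.12, 1.35-fold, adjusted p = 0.0103). With the 2 optix groups fitted alone LanB2 was not called (0.43 ± 0.16, adjusted p = 0.187). In eyFLP ctrl it was at 75.5, 75.9 and 69.9 CPM and in eyFLP wts- at 58.9 and 54.4 CPM (-0.37 ± 0.12, 1.30-fold lower, adjusted p = 0.0248). Neither pair of groups overlapped, and the difference of these 2 effects was -0.81 ± 0.17 (adjusted p = 0.00278). Leaving out any 1 of the 5 eyFLP libraries ended the eyFLP call (adjusted p 0.0637 to 0.228), and leaving out optix yki3SA replicate 2 ended the optix call (adjusted p = 0.0694). In MARCM run 1, LanB2 was at 89.8 to 100.3 CPM in controls (median 92.8) and 58.7 to 83.1 CPM in yki3SA (median 74.6). These did not overlap, and over both runs LanB2 fell by 0.31 ± 0.12 (adjusted p = 0.0393). With the replicate block over both runs the adjusted p was 0.0746, in run 1 alone with all 4 groups it was 0.0559, and 8 of 13 fits without 1 library lost the call (0.0509 to 0.116). LanB2 in MARCM yki3SA sd- was at 70.9, 49.9 and 91.9 CPM in run 1 and was not called against MARCM yki3SA (0.14 ± 0.13, adjusted p = 0.347). Without replicates 1 and 2 it was higher than in MARCM yki3SA by 0.44 (adjusted p = 0.000716). The LanB2 interaction of yki3SA and sd- was then called (0.46 ± 0.12, adjusted p = 0.00549). Over all MARCM libraries that interaction was 0.18 ± 0.17 (adjusted p = 0.446).

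Nidogen, which links laminin and collagen IV networks, was near the limit of detection. Ndg had 0 counts in all 5 optix libraries, 0 in each eyFLP ctrl library and 1 in each eyFLP wts- library. In MARCM run 1 the controls held 2, 1, 2, 0 and 0 counts and the yki3SA libraries 5, 4, 5, 12 and 5, so that every yki3SA library was above every control. In run 2 the yki3SA library held 26 counts and the controls 8 and 5. MARCM sd- held 0, 3 and 0 counts in run 1 and 7 and 2 in run 2, and MARCM yki3SA sd- held 0 in all 3 run 1 libraries and 4 and 5 in run 2. Fitted without the filter on low counts, Ndg rose in MARCM yki3SA (2.58 ± 0.65, adjusted p = 0.00408) and was lower in MARCM yki3SA sd- than in MARCM yki3SA (-3.47 ± 0.79, adjusted p = 0.00147). Fitted changes of a gene with so many counts of 0 depend on the fit and are given for direction. Ndg was the member whose level went up in MARCM yki3SA where the others went down or were not called.

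SPARC is a small secreted protein of 304 residues by the annotation (BM-40-SPARC, 3R:26869238-26871995, minus strand). In run 1 it was at 34.7, 43.6, 30.8, 36.3 and 45.0 CPM in MARCM ctrl and 6.60, 7.75, 7.89, 11.1 and 11.8 CPM in MARCM yki3SA. The groups were widely separate, and in run 2 the yki3SA library (10.2 CPM) was likewise below both controls (34.9 and 33.7 CPM). The change was -1.94 ± 0.28 (3.84-fold lower, adjusted p = 7.4e-06). In eyFLP discs it was at 23.2, 18.7 and 27.7 CPM in controls and 13.1 and 9.91 CPM in eyFLP wts-, without overlap (-1.002 ± 0.23, 2.00-fold lower, adjusted p = 0.00246). Leaving out eyFLP wts- replicate 2 gave -0.80 (adjusted p = 0.0801). In optix discs the groups overlapped, at 25.1, 21.9 and 26.1 CPM in controls and 21.1 and 24.1 CPM in yki3SA (-0.09 ± 0.22, adjusted p = 0.81). The hemocyte marker sums of these groups were 308.1 to 735.7 and 125.2 to 159.4 CPM. The SPARC effect was more negative in MARCM yki3SA than in eyFLP wts- by 1.05 ± 0.28 (adjusted p = 0.0197) and than in optix yki3SA by 1.96 ± 0.27 (adjusted p = 2.77e-05).

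MARCM sd- held 28.4, 35.1 and 28.4 CPM of SPARC in run 1 (-0.32 ± 0.28 from control, adjusted p = 1). MARCM yki3SA sd- held 25.6, 4.03 and 38.7 CPM in run 1 and 23.6 and 22.6 CPM in run 2. Replicate 2, one of the libraries that stood apart, was below every other library of the study, with a hemocyte marker sum of 1545 CPM. The difference from MARCM yki3SA was 1.31 ± 0.30 (adjusted p = 0.00101), and 1.69 (adjusted p = 2.62e-07) without replicates 1 and 2. Against MARCM ctrl it was -0.63 ± 0.28 and not called (adjusted p = 0.102). It was called without run 1 replicate 3 (-0.91 ± 0.29, adjusted p = 0.0304), and was -0.32 without replicates 1 and 2 (adjusted p = 0.511). The part of hemocytes in the SPARC results was not tested.

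**Figure D5:**
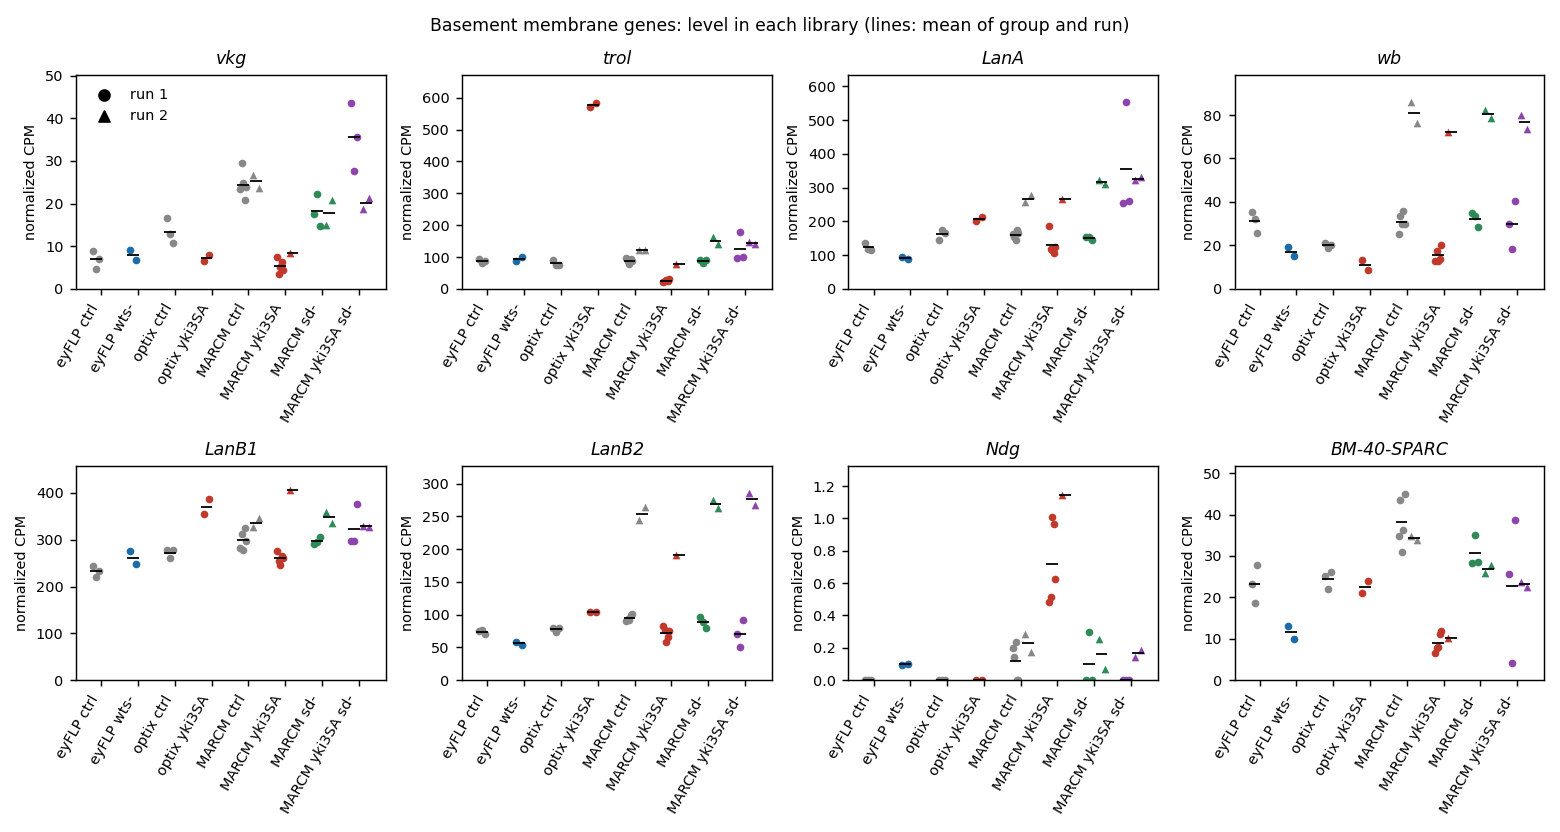
Normalized CPM of the 8 basement membrane genes in every library of the 8 groups (circles, run 1; triangles, run 2; lines, mean of group and run; each panel has its own axis from 0). The optix yki3SA libraries stand at 571.3 and 583.7 CPM for trol, and the 5 run 1 MARCM yki3SA libraries lie below all 5 run 1 MARCM ctrl libraries for vkg, trol and BM-40-SPARC.

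Members were only partly alike in how they varied. Over deviations from the mean of group and run in 32 libraries, which share depth and scaling, Pearson's r between pairs of members ran from -0.7701 (LanA and BM-40-SPARC) to 0.6895 (wb and LanB2). Over the run 1 means of the 8 groups trol and LanB1 were the most alike (r = 0.9353), and Ndg and BM-40-SPARC (r = -0.7005) and trol and Ndg (r = -0.6983) ran most against each other. These correlations describe the libraries and carry no test.

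Receptors and turnover enzymes of the matrix were described from lists chosen by function. For the lists below, the shares of all genes that rose and fell were 10.6% and 13.5% in eyFLP wts-. These shares were 9.02% and 10.5% in optix yki3SA, and 17.3% and 17.1% in MARCM yki3SA. Among 14 integrin and adhesion plaque genes, 7 rose and 0 fell in eyFLP wts-, 7 rose and 1 fell in optix yki3SA, and 6 rose and 0 fell in MARCM yki3SA, with medians of 0.70, 0.57 and 0.51. Pax (paxillin, an adhesion plaque adaptor) rose in each, by 1.91 ± 0.17, 1.87 ± 0.17 and 1.78 ± 0.18. The laminin-binding integrin α subunit gene mew rose by 0.83 ± 0.10 in MARCM yki3SA (adjusted p = 4.9e-07). The integrin α subunit gene if fell in optix yki3SA (-0.80 ± 0.19, adjusted p = 0.00369). In MARCM yki3SA sd- against MARCM yki3SA, 9 of the 14 were lower and 1 higher, beside 28.1% and 24.9% of all genes. Pax was among the lower (-2.35 ± 0.21, adjusted p = 7.4e-09).

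The fly has 2 matrix metalloproteinase genes, whose products cut matrix proteins. Mmp2 fell in all 3 models, with log2 fold changes of -3.61 ± 0.33 in eyFLP wts-, -3.38 ± 0.32 in optix yki3SA and -2.67 ± 0.28 in MARCM yki3SA, and was higher in MARCM yki3SA sd- than in MARCM yki3SA (3.08 ± 0.29, adjusted p = 1.87e-08). Mmp1 rose in eyFLP wts- (3.82 ± 0.26, adjusted p = 4.69e-10) and in MARCM yki3SA (1.91 ± 0.28, adjusted p = 1.02e-05), and its 0.59 ± 0.25 in optix yki3SA was not called (adjusted p = 0.104). Timp, an inhibitor of these enzymes, rose in MARCM yki3SA from a run 1 mean of 1.18 to 12.8 CPM (3.56 ± 0.35, adjusted p = 2.61e-08). Of the 6 genes of this list, 3 rose and 1 fell in eyFLP wts-, 2 rose and 1 fell in optix yki3SA, and 4 rose and 2 fell in MARCM yki3SA.

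Of 11 other extracellular matrix genes, 5 rose and 3 fell in eyFLP wts-, 5 rose and 3 fell in optix yki3SA, and 4 rose and 5 fell in MARCM yki3SA. Mp, which encodes the collagen XV/XVIII homolog Multiplexin, fell in the 3 models in that order (-3.18 ± 0.24, -1.67 ± 0.22 and -2.40 ± 0.31). The integrin ligand gene Tig (tiggrin) rose by 3.82 ± 0.32, 1.29 ± 0.35 and 2.64 ± 0.50, and the fasciclin-domain gene mfas rose by 3.36 ± 0.34, 1.55 ± 0.34 and 2.17 ± 0.27. Pxn (peroxidasin, which crosslinks collagen IV and is also on the hemocyte list) was higher in MARCM yki3SA sd- than in MARCM yki3SA by 3.33 ± 0.40 (adjusted p = 5.56e-07). Among genes for collagen IV modification and secretion, Cg25C included, 2 of 9 rose and 1 fell in eyFLP wts-, 3 rose and 2 fell in optix yki3SA, and 1 of 10 rose and 1 fell in MARCM yki3SA. The prolyl 4-hydroxylase gene PH4alphaEFB fell in eyFLP wts- (-0.68 ± 0.15, adjusted p = 0.0014) and rose in optix yki3SA (0.79 ± 0.14, adjusted p = 0.000359).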

How the data were processed

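The authors deposited read counts per gene and library of transcript 3' ends (QuantSeq forward kit, per the labels' protocols). Per the submitters' processing notes, FastQC, cutadapt and STAR 2.6.1d were used with the dm6 genome. Which tool counted reads, with which strand setting and gene models, was not stated in the sources used here. The counts came in 3 tables with shared columns, and depth limits the precision of genes with few counts.

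The 2 fits were made with edgeR 4.0.16 in R 4.3.3 (filterByExpr, TMM factors, robust quasi-likelihood F test, Benjamini-Hochberg adjustment, call under 0.05). One held the eyFLP and optix groups and run 1 MARCM ctrl and yki3SA (20 libraries, 8693 genes). The other held the 23 MARCM libraries with the run as a term (8927 genes), in which the lone yki3SA library of run 2 shares the spread of the other groups. In run 2 the sd- and yki3SA sd- libraries also differ from ctrl and yki3SA in FRT chromosome and driver. The run term cannot separate that difference from sd, so run 1 alone was an alternative. Standard errors were derived from F and are approximate. The code was tested on simulated data. The labels do not say whether samples came from separate cultures, so a p-value covers only the spread among these samples, which may be technical.

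The members, the gene lists and the tests were chosen with earlier results of these data known. Every member is reported in every comparison. From each list, up to 3 called genes with the largest change, at 10 CPM or more in the group with the higher mean, could be named. Some cell type markers were named outside that rule. Genes like a member were the 2 with the highest correlation of group means over run 1. Alternatives were other scalings and filters, DESeq2 1.42.0, limma-voom (limma 3.58.1), a replicate block, the groups or run 1 alone, other pseudocounts, and leaving out each library. Whether replicate numbers pair libraries was checked by correlating deviations from group means. Same-numbered run 1 MARCM ctrl and yki3SA libraries gave 0.3288 to 0.7389 over 5 pairs and were taken as paired. Some differently numbered libraries correlated more strongly, such as ctrl 4 with yki3SA 5 (0.7384, beside 0.4134 for the pair numbered 4). Ctrl 2 with yki3SA 3 gave 0.3736, beside 0.3288 for the pair numbered 2. The pairing is thus an assumption, and no other groups were taken as paired by these correlations. The replicate block, an alternative only, nevertheless ties same-numbered libraries of every group in a model and run. Among them, run 1 MARCM sd- with MARCM yki3SA sd- gave -0.6382 to -0.3482. Gene positions come from the reference annotation, which placed 16508 of 16727 symbols.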

Additional observations from a re-analysis of the deposited data

Results flagged for a closer look

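One library stood far from the rest of its group. LanA was at 186.8 CPM in replicate 1 of run 1 MARCM yki3SA, where the other 4 libraries were at 106.7 to 123.8 CPM. Of 16 gene and group combinations large enough for this check 1 was picked out, and chance gives about 1 in 20.

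The effect of yki3SA in the MARCM model differed with sd for 5 genes. The interaction, in log2, was 2.71 for vkg, 1.77 for trol, 1.04 for LanA, 0.68 for wb and 1.63 for BM-40-SPARC.

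Effects also differed between models. The effect in eyFLP wts- minus that in MARCM yki3SA was 2.35 for vkg, 1.86 for trol and 1.05 for BM-40-SPARC. The effect in optix yki3SA minus that in MARCM yki3SA was 1.28 for vkg, 4.62 for trol, 0.65 for LanA, 0.64 for LanB1, 0.81 for LanB2 and 1.96 for BM-40-SPARC. The effect in eyFLP wts- minus that in optix yki3SA was -2.76 for trol, -0.77 for LanA and -0.81 for LanB2. Each of these differences had an adjusted p under 0.05, that of LanA in the last (0.0434) and the wb interaction (0.0447) losing the call in most fits without 1 library, and the MARCM yki3SA and ctrl libraries serve in several of them.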

How the results depend on the processing

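No called change of a basement membrane gene changed sign under the alternatives run. Of 1554 values compared, 64 lost a call and 28 gained one. Members called are given here with the calls among all genes in parentheses, which also moved. In MARCM yki3SA sd- against MARCM ctrl they numbered 1 (1491 of 8927), and 2 with DESeq2 (2647 of 8927). They numbered 0 with the replicate block (17 of 8927) and 3 in run 1 alone (3291 of 8372). Without the 2 libraries that stood apart, an alternative chosen after seeing the data, they numbered 0 (45 of 9204). Against MARCM sd- they numbered 0 (12 of 8927), and 1 with DESeq2 (140 of 8927) and 2 in run 1 alone (1429 of 8372). In optix yki3SA they numbered 5 (1699 of 8693), and 1 with the 2 groups alone (554 of 8067). The cause was not tested. Leaving out 1 library gave 0 to 2 calls in MARCM yki3SA sd- against ctrl (0 without run 1 replicate 2, 2 without replicate 3), 2 to 5 in optix yki3SA and 0 to 2 in eyFLP wts-, in each case lowest without replicate 2 of the treated group. The replicate numbers were not shown to pair samples. Outside the replicate block, which ties same-numbered libraries of every group, they were taken as pairs only in run 1 MARCM ctrl and yki3SA. In other comparisons the replicate block left vkg in optix yki3SA at an adjusted p of 0.0503. The vkg difference from the MARCM yki3SA effect was then at 0.0507, LanA in MARCM yki3SA sd- against ctrl at 0.117 and the wb interaction at 0.0659. For the wb to LanA ratio, exact tests of 2 or 3 libraries against 3 cannot pass, so their alternatives say nothing of stability. Depth limits Ndg, with at most 26 counts in a library.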
